A study of Mus musculus with 9 samples.

Results

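The genes described here are 10 genes of the actin cytoskeleton and of intermediate filaments, Vim, Cnn2, Tpm4, Zyx, Vcl, Tln1, Flna, Actn1, Myh9 and Myh10, measured by bulk RNA-seq in mouse bone marrow megakaryocyte-erythrocyte progenitors (MEPs). They were chosen by gene name, with results of these same libraries known, and all 10 were found among the 35275 gene identifiers of the count table. No threshold separated them from other genes. Because the choice was made with the difference between the HS3A8-high and HS3A8-low fractions in view, that difference is given as a description of levels and not as a test of the genes.

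MEPs were gated as lineage-negative, c-kit-positive, CD34-negative cells with low FcγRII/III, and all groups came through this gate. HS3A8-high and HS3A8-low MEPs are the more and the less strongly binding cells of the gate when stained with HS3A8, a single-chain antibody fragment (scFv) that recognises sulfated heparan sulfate on the cell surface. The MPB49 control is the whole gate stained with an scFv that has no known epitope and mock-sorted. Each of the 3 groups had 3 libraries, made from 25000 cells per condition. The labels give neither genotype, strain nor age of the mice, and no group carried a transgene or treatment by the labels. The study gives the replicates as individual mice, without saying whether both fractions of a number came from the same mouse. The labels name no animals, so p-values measure the spread between these libraries. In bulk RNA, fewer cells of a type and less RNA per cell cannot be told apart.

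Actin filaments are built from actin monomers and take their shape from the proteins that bind them. Calponins and tropomyosins lie along the filament, filamin and alpha-actinin tie filaments into networks and bundles, and non-muscle myosin II pulls on them. Talin, vinculin and zyxin sit where filaments end at integrin adhesions, and vimentin forms a separate filament system. In the megakaryocyte lineage this machinery serves proplatelet and platelet formation, while red cell precursors lose adhesions and expel their nucleus with the help of actomyosin. Many of the genes are known targets of serum response factor (SRF), which binds a DNA element called the CArG box.

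Library totals ran from 11781637 to 15850037 counts, and 13936 to 15659 genes had at least 1 count. A count of 0 allows up to 3 counts, or 0.189 to 0.255 CPM (counts relative to the library total, scaled by TMM over the 9 libraries), and such limits cover counting error only, because reads carried no molecular identifiers. Erythroid markers led by Car2, Car1 and Ermap summed to 14321 to 15194 CPM in HS3A8-high, 10837 to 12194 CPM in HS3A8-low and 12604 to 14073 CPM in the control. Both fractions of replicate 3 stood apart by granulocyte-monocyte markers (16 genes, led by Mpo, Lyz2 and Elane), which summed to 1971 CPM in HS3A8-high replicate 3 and 5007 CPM in HS3A8-low replicate 3, against 11.1 to 269 CPM in the other 7 libraries. MPB49 control replicate 1 stood apart by transcript length. Its median log2 ratio to control replicates 2 and 3 was 1.30 for genes with up to 1000 bases of exon and -0.54 for genes over 8000 bases. The differences of Vim, Cnn2, Zyx and Tpm4 between the fractions are given with and without replicate 3. Control comparisons of the longest members are given with and without control replicate 1. The replicate numbers paired the 2 HS3A8 fractions, since deviations from the group mean correlated across 11791 genes at r = 0.346 to 0.518 for libraries of the same number and at -0.483 to 0.114 otherwise. The numbers did not pair either fraction with the control.

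Promoters are shown first for the 2 genes that carried a CArG box, because the members share this element only in part. In the RefSeq windows of GRCm38.p6 from 250 bases before to 50 bases after each gene's start, all 10 members matched, and Cnn2 and Vcl held a CArG box. The motif was present in 535 of 32851 windows, or 1.63%. Capitals mark the CArG box, on the strand of the gene. The Cnn2 window lies at chr10:79988519-79988578 on the plus strand, with the box starting 56 bases before the start. The Vcl window lies at chr14:20929148-20929205 on the plus strand, with the box starting 227 bases before. For comparison, the window of the cytoplasmic actin gene Actg1 lies at chr11:120348551-120348610 on the minus strand.
Cnn2: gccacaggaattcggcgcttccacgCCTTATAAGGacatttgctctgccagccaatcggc
Vcl: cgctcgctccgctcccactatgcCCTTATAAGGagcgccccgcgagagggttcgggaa
Actg1: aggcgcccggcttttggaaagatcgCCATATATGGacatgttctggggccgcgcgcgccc
Cnn2 and Vcl carried the same 10 letters and, as described below, had different levels across the fractions. The letters AGATAA of a GATA site, read on both strands, were in 0 of 10 member windows against 11.18% of all windows, and the letters TGTGGT of a RUNX site in 0 of 10 against 16.76%. A match is a description of the letters, and no match says only that they are absent from these windows.

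Vim, Cnn2 and Zyx were the members whose 3 HS3A8-high libraries lay wholly below their 3 HS3A8-low libraries. Tpm4 and Actn1 had lower means in HS3A8-high with overlapping groups, Vcl and Myh10 had higher means with overlapping groups, and Tln1, Flna and Myh9 had means within 1.09-fold of each other. No overlap with the first group lower was seen for 14.3% of the 11791 genes tested, and with the first group higher for 15.2%. The plot of levels shows every library.

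**Figure D1:**
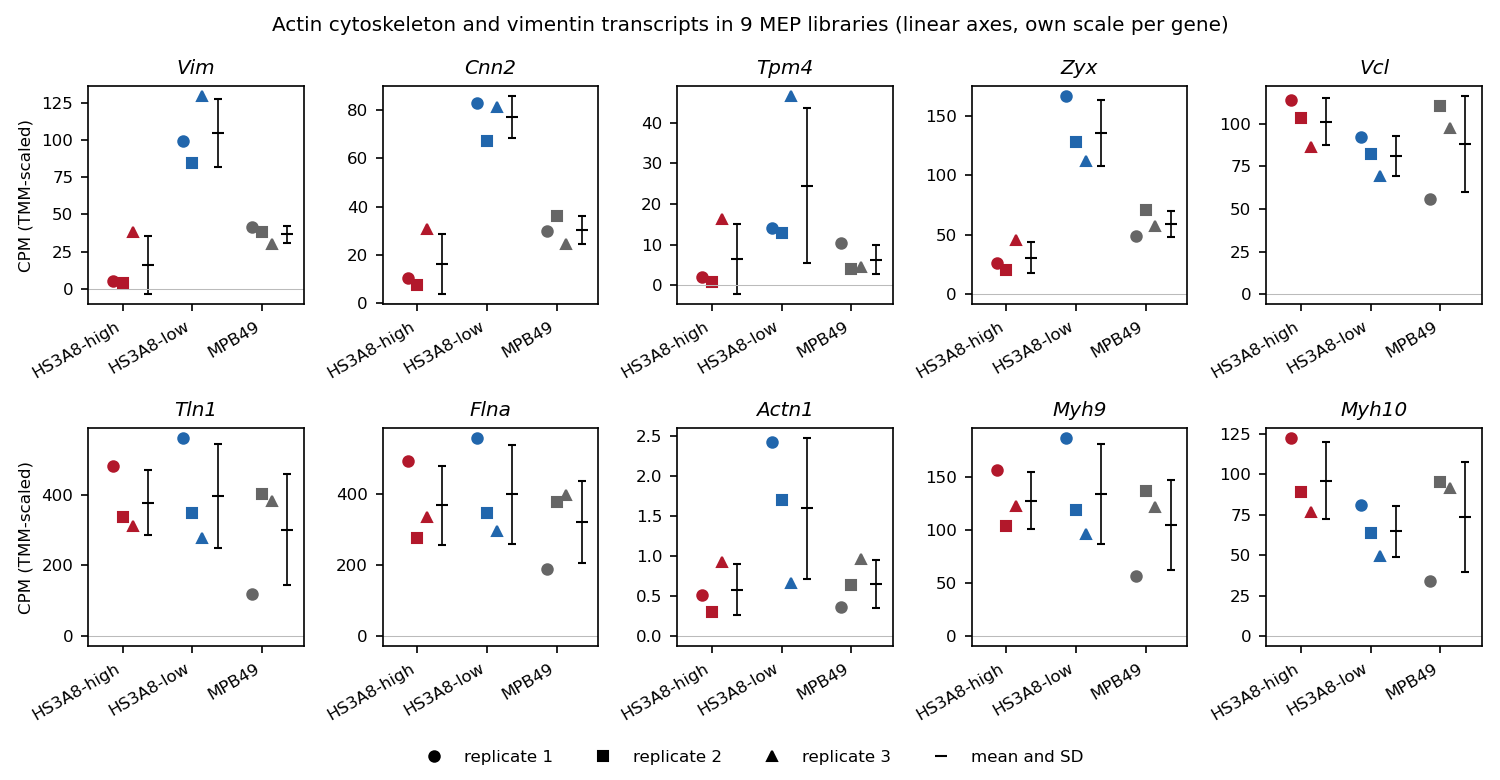
Level of each of the 10 genes in CPM (TMM-scaled, linear axes with a separate scale per gene) in the 3 libraries of HS3A8-high (red), HS3A8-low (blue) and MPB49 control (grey) MEPs, with symbols for replicate number and the mean ± SD beside the points. Vim, Cnn2 and Zyx have no overlap between the HS3A8 fractions, and MPB49 replicate 1 is the lowest control for Zyx, Vcl, Tln1, Flna, Actn1, Myh9 and Myh10.

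Vim (chr2:13573927-13582826, plus strand, positions here and below in GRCm38) encodes vimentin, the intermediate filament protein of mesenchymal and many blood cells. It read 5.34, 3.74 and 38.4 CPM in HS3A8-high replicates 1, 2 and 3, then 99.7, 84.9 and 129.8 CPM in HS3A8-low and 41.6, 38.0 and 29.95 CPM in the control. HS3A8-high replicate 3 lay within the control range, and the other HS3A8-high libraries lay below every other library. Group means were 15.8 ± 19.5, 105 ± 22.8 and 36.5 ± 5.98 CPM (SD, n = 3 each), so that the HS3A8-low mean was 6.63-fold the HS3A8-high mean. The fitted log2 fold change of HS3A8-high over HS3A8-low was -2.76 (SE 0.84, 95% interval -4.74 to -0.77), and -3.34 (SE 0.55) with the replicate number as a block.

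Cnn2 (chr10:79988584-79996062, plus strand) encodes calponin 2, an actin-binding protein that steadies filaments and restrains myosin. Its levels were 10.5, 7.63 and 30.6 CPM in HS3A8-high, 83.0, 67.2 and 81.4 CPM in HS3A8-low and 30.1, 36.3 and 24.4 CPM in the control. As for Vim, HS3A8-high replicate 3 was inside the control range and the other HS3A8-high libraries were below it. The log2 fold change between fractions was -2.28 (SE 0.50, 95% interval -3.46 to -1.10) and -2.50 (SE 0.35) with the block.

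The related calponin Cnn3 (77.0 ± 12.1 and 76.5 ± 8.97 TPM, counts per exon length scaled to the same total in each library, in HS3A8-high and HS3A8-low, SD, n = 3 each) had a log2 fold change of 0.01 (95% interval -0.32 to 0.34). Per length, the ratio of Cnn2 to Cnn3 was 0.163, 0.15 and 0.491 in HS3A8-high, 1.42, 1.34 and 1.29 in the HS3A8-low libraries and 0.534, 0.633 and 0.424 in the control. Cnn2 was thus the more abundant calponin in the 3 HS3A8-low libraries and the less abundant in the other 6. Cnn1, the smooth muscle calponin, had no count in any library.

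Tpm4 (chr8:72134975-72153142, plus strand) encodes a tropomyosin, a coiled coil that lies in the groove of the filament and is abundant in platelets. It read 2.03, 0.763 and 16.3 CPM in HS3A8-high, 14.1, 12.8 and 46.6 CPM in HS3A8-low and 10.5, 3.97 and 4.34 CPM in the control. HS3A8-high replicate 3 exceeded HS3A8-low replicates 1 and 2, so the groups overlapped, while within each replicate number HS3A8-high was the lower fraction. The log2 fold change was -1.98 (SE 1.08, 95% interval -4.52 to 0.57) without and -2.55 (SE 0.43) with the block. Both fractions of replicate 3 and control replicate 1 were the highest libraries of their groups.

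Among the other tropomyosins, Tpm1 had a log2 fold change of -0.10 (95% interval -0.34 to 0.13) and Tpm3 one of -0.41 (95% interval -0.62 to -0.19). Tpm3 was the most abundant tropomyosin per length, at 161 ± 13.4 TPM in HS3A8-high and 215 ± 18.8 TPM in HS3A8-low (SD, n = 3 each). The lowest and highest ratios of Tpm4 to Tpm3 per length were 0.00706 and 0.133 for HS3A8-high, then 0.0932 and 0.313 for HS3A8-low. Tpm2 was near the detection limit, with a mean of 0.655 CPM over the 9 libraries.

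Zyx (chr6:42349630-42360213, plus strand) encodes zyxin, which gathers at adhesions and strained stress fibres and recruits actin assembly factors. Its levels were 26.1, 20.6 and 45.6 CPM in HS3A8-high, 167, 128 and 112 CPM in HS3A8-low and 48.9, 71.0 and 57.6 CPM in the control. The 3 groups did not overlap one another, in the order HS3A8-high, control and HS3A8-low. The log2 fold change between fractions was -2.17 (SE 0.31, 95% interval -2.92 to -1.43), and -2.23 (SE 0.28) with the block.

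Vcl (chr14:20929398-21033676, plus strand) encodes vinculin, which couples talin to actin at the same adhesions. It gave 114, 103 and 86.4 CPM in HS3A8-high, 92.5, 82.2 and 69.3 CPM in HS3A8-low and 56.2, 110.3 and 97.8 CPM in the control. The fractions overlapped, and HS3A8-high was the higher fraction within each replicate number, by a log2 ratio of 0.30, 0.33 and 0.32. The fitted log2 fold change was 0.28 (SE 0.15, 95% interval -0.07 to 0.63), with an SE of 0.07 under the block. Of the exon bases of Vcl, 25.5% also lie in exons of Ap3m1 on the opposite strand, and whether counting used the strand is not given in the sources used here.

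The means of Zyx and Vcl therefore stood in opposite order in the fractions, although Vcl overlapped between them and its interval included 0. Per length, the ratio of Zyx to Vcl was 0.347, 0.303 and 0.803 in HS3A8-high, 2.74, 2.36 and 2.46 in the HS3A8-low libraries and 1.32, 0.979 and 0.894 in the control. The ratio was below 1 in each HS3A8-high library and above 2 in each HS3A8-low library, and this pair was picked after its values were seen.

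Tln1 (chr4:43531519-43562691, minus strand) encodes talin 1, the protein that activates integrins from inside the cell. Its levels were 482, 338 and 311 CPM in HS3A8-high, 561, 349.7 and 277 CPM in HS3A8-low and 119 CPM, 402 CPM and 383 CPM in the control. The fractions overlapped throughout, and control replicate 1 was the lowest of the 9 libraries. The log2 fold change of -0.11 had a 95% interval from -0.77 to 0.56, and with the block it was -0.07 (SE 0.09). The second talin, Tln2, was near the detection limit at a mean of 0.186 CPM.

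Flna (chrX:74223461-74249820, minus strand) encodes filamin A, which crosslinks actin into orthogonal networks and anchors the von Willebrand factor receptor of platelets. It read 490.1, 276 and 335 CPM in HS3A8-high, 556, 345 and 295 CPM in HS3A8-low and 188, 376 and 396 CPM in the control. The fractions overlapped, with a log2 fold change of -0.15 (SE 0.29, 95% interval -0.85 to 0.54) and -0.14 (SE 0.10) with the block. Flnc, the muscle filamin, had a mean of 0.0207 CPM.

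Actn1 (chr12:80167547-80260371, minus strand) encodes alpha-actinin 1, which bundles actin filaments and is prominent in platelets. Here it was close to the detection limit, at 8, 4 and 14 counts in HS3A8-high, 41, 24 and 8 counts in HS3A8-low and 4, 10 and 13 counts in the control. HS3A8-low replicate 3 lay among the HS3A8-high libraries, and the log2 fold change of -1.48 had a 95% interval from -3.00 to 0.04. The most abundant alpha-actinin was Actn4, the other non-muscle form, at 259 ± 26.7 TPM in HS3A8-high and 244 ± 27.1 TPM in HS3A8-low (SD, n = 3 each). Actn4 had a log2 fold change of 0.10 (95% interval -0.09 to 0.29), and Actn1 was at most 0.00572 of Actn4 per length in any library. Actn3 had a log2 fold change of 0.52 (95% interval -0.42 to 1.45) at a mean of 2.06 CPM, and Actn2 a mean of 0.209 CPM.

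Myh9 (chr15:77760587-77842175, minus strand) and Myh10 (chr11:68691559-68816632, plus strand) encode the heavy chains of non-muscle myosin IIA and IIB. Myh9 is the myosin of platelets, and Myh10 is known to be silenced as megakaryocytes become polyploid. Myh9 read 157, 103 and 122 CPM in HS3A8-high, 186, 118 and 96.4 CPM in HS3A8-low and 56.2, 136 and 122 CPM in the control. The fractions overlapped, with a log2 fold change of -0.11 (SE 0.27, 95% interval -0.73 to 0.52). Myh10 gave 122, 88.8 and 76.9 CPM in HS3A8-high, 81.1, 64.0 and 49.6 CPM in HS3A8-low and 34.3, 95.2 and 91.3 CPM in the control. HS3A8-high was the higher fraction of Myh10 within each replicate number, although HS3A8-high replicate 3 lay below HS3A8-low replicate 1. The log2 fold change was 0.53 (SE 0.23, 95% interval -0.02 to 1.08), and the SE was 0.08 with the block.

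Each heavy chain gene overlapped between the fractions, while their ratio, 1 of several gene pairs compared, did not. Per length, the ratio of Myh10 to Myh9 was 0.967, 1.06 and 0.779 in HS3A8-high, 0.539, 0.67 and 0.637 in the HS3A8-low libraries and 0.755, 0.864 and 0.928 in the control. The 3 HS3A8-high ratios all exceeded the 3 HS3A8-low ratios, and the control ratios overlapped with those of HS3A8-high. Both transcripts are long (12928 and 10458 bases of exon), and the ratio does not depend on the scaling of a library. Myh14, the third non-muscle heavy chain, had no count in any library.

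Per length, the order of the genes differed between the fractions. In HS3A8-low the order was Flna (142 ± 61.8 TPM), Tln1 (136 ± 62.1), Cnn2 (103 ± 15.8), Zyx (83.9 ± 24.7), Vim (72.2 ± 11.8), Tpm4 (35.2 ± 24.6), Myh9 (34.7 ± 15.2), Vcl (33.0 ± 7.56), Myh10 (20.7 ± 6.80) and Actn1 (0.98 ± 0.602, SD, n = 3 each). In HS3A8-high it was Flna (126 ± 43.3 TPM), Tln1 (124 ± 35.2), Vcl (39.6 ± 6.56), Myh9 (31.6 ± 8.07), Myh10 (29.5 ± 8.42), Cnn2 (21.1 ± 16.1), Zyx (18.2 ± 7.75), Vim (10.6 ± 13.0), Tpm4 (9.18 ± 12.3) and Actn1 (0.335 ± 0.182). In the control it was Flna (104 ± 50.7 TPM), Tln1 (96.2 ± 59.5), Cnn2 (36.2 ± 11.3), Zyx (32.8 ± 11.6), Vcl (32.8 ± 15.3), Myh9 (24.96 ± 13.3), Vim (22.3 ± 3.81), Myh10 (21.9 ± 12.5), Tpm4 (7.70 ± 2.72) and Actn1 (0.361 ± 0.202). Most neighbours in an order differed by less than the larger of their SDs. The exceptions were Vim above Tpm4, Vcl above Myh10 and Myh10 above Actn1 in HS3A8-low, Tln1 above Vcl in HS3A8-high, and Tln1 above Cnn2, Myh10 above Tpm4 and Tpm4 above Actn1 in the control. By these means, Cnn2, Zyx and Vim stood above Myh9, Vcl and Myh10 in HS3A8-low and below them in HS3A8-high. HS3A8-high replicate 3 did not follow this order. There Cnn2 (39.4 TPM) was above Vcl (33.4), Myh9 (29.9) and Myh10 (23.3), and Zyx (26.8) and Vim (25.6) were above Myh10.

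Between the HS3A8 fractions, edgeR's quasi-likelihood test at an adjusted p under 0.05 called 1 of 10 members, Zyx, lower in HS3A8-high, and 0 higher, where 3.21% of the 11791 genes were called lower and 0.611% higher. DESeq2 called 2 members and voom with quality weights 3, all lower. DESeq2 called 5.09% of 18095 genes lower, and voom 9.02% of 11791. DESeq2 was run without the count filter and gave no adjusted p for Tpm4, so its share is over a wider set of genes. Under an unadjusted p of 0.05 in edgeR, 3 members were lower and 0 higher, beside 12.7% and 7.16% of genes. With the replicate block, 4 members were called lower (Vim, Cnn2, Tpm4 and Zyx) and 1 higher (Myh10), where 8.27% of genes were called lower and 3.32% higher. Nothing is read from these counts, since the contrast entered the choice of the genes. The call of Zyx depended on the libraries, with an adjusted p from edgeR of 0.0999 and 0.0754 when replicate 1 or 2 of HS3A8-high was left out, and of 0.0737 and 0.123 when replicate 1 or 2 of HS3A8-low was. Without HS3A8-high replicate 3, Vim and Cnn2 were called as well, at adjusted p of 0.00492 and 0.00558 from edgeR. With replicate 3 of both fractions left out, 4 members were called lower, where 6.01% of genes were, and the log2 fold changes were -4.35 for Vim, -3.07 for Cnn2, -2.68 for Zyx and -3.25 for Tpm4.

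**Figure D2:**
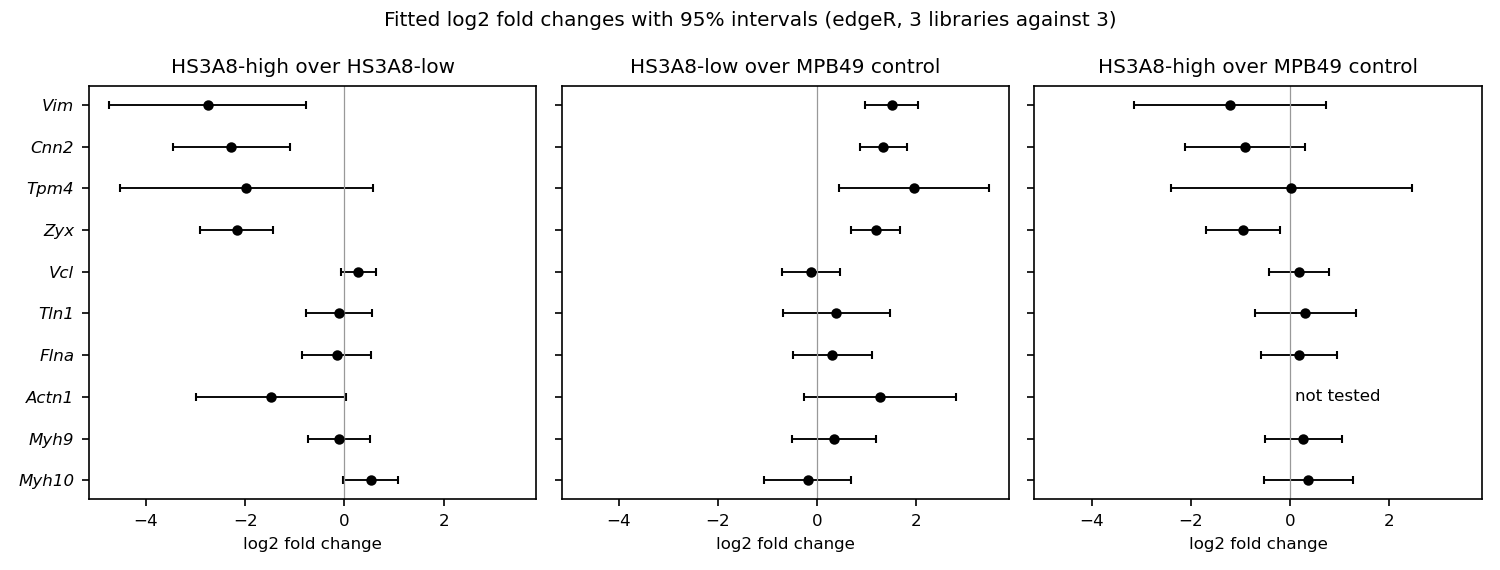
Fitted log2 fold change (x axis) with its 95% interval for each gene in 3 comparisons of 3 libraries against 3, without a replicate block. Vim, Cnn2 and Zyx lie below 0 in HS3A8-high over HS3A8-low and, with Tpm4, above 0 in HS3A8-low over the control, while the intervals of Vcl, Tln1, Flna, Myh9 and Myh10 include 0 in each comparison and Actn1 was not tested in HS3A8-high over the control.

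Within replicate numbers, the log2 ratios of HS3A8-high to HS3A8-low for numbers 1, 2 and 3 were -4.16, -4.42 and -1.75 for Vim, -2.95, -3.10 and -1.40 for Cnn2, -2.67, -2.62 and -1.29 for Zyx, and -2.65, -3.69 and -1.51 for Tpm4. For each of these 4 genes the ratio of replicate 3 was the nearest to 0. Those of Myh10 were 0.59, 0.47 and 0.63, and those of Vcl differed by an SD of only 0.02. Those of Actn1 were -1.81, -1.81 and 0.36. Tln1, Flna, Myh9 and Actn1 each had 1 of 3 ratios above 0, that of replicate 3.

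**Figure D3:**
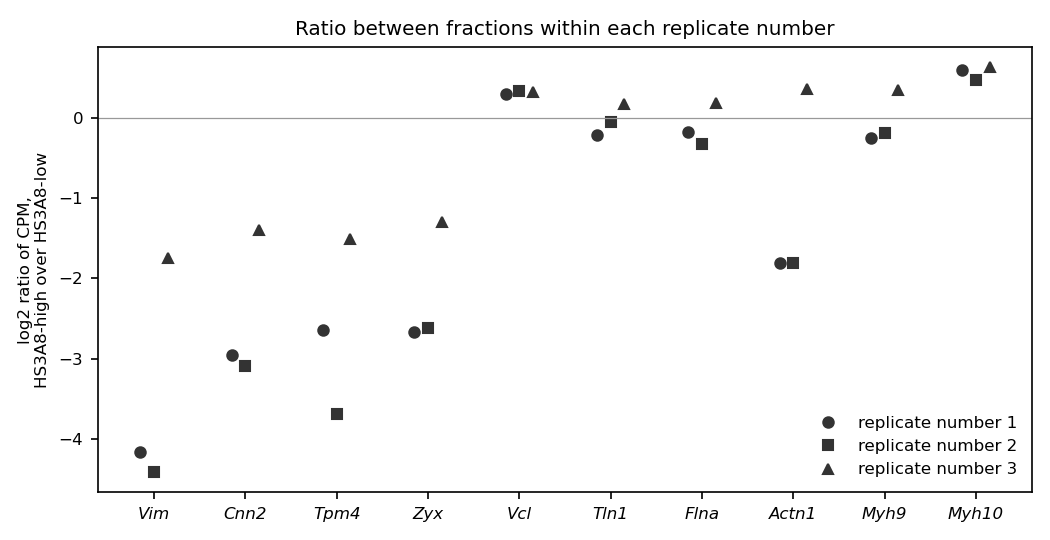
Log2 ratio of CPM in HS3A8-high over HS3A8-low within each replicate number (3 symbols per gene, pseudocount of 0.25 CPM). Vim, Cnn2, Tpm4 and Zyx are below 0 in all 3 and nearest to 0 in replicate 3, Vcl and Myh10 are above 0 in all 3, and Tln1, Flna, Actn1 and Myh9 change sign.

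The same libraries differed in markers of other cells. From HS3A8-high to HS3A8-low, the summed level of 12 T and NK cell markers (led by Nkg7, Trbc1 and Trbc2) went from 3.97 to 34.3 CPM to 138 to 163 CPM, with 41.4 to 97.9 CPM in the control. Megakaryocyte markers (15 genes, led by Itga2b, Gp5 and Pf4) summed to 76.5 to 115 CPM, 231 to 441 CPM and 185 to 301 CPM in the same order. Stem and multipotent markers (10 genes, led by Cd34, Meis1 and Flt3) summed to 17.2 to 33.2 CPM, 183 to 217 CPM and 82.6 to 142 CPM, although the gate excludes cells with CD34 on the surface. Like Vim, Cnn2 and Zyx, these 3 lists did not overlap between the fractions and were lower in HS3A8-high. The erythroid sum given above did not overlap between the fractions either and was higher in HS3A8-high. Within the T and NK list, HS3A8-low means were 107 CPM for Nkg7 and 23.5 CPM for Trbc1. They were only 1.98, 1.27 and 1.25 CPM for Cd3d, Cd3e and Cd3g, 0 CPM for Cd4 and 0.0707 CPM for Cd8a. Granulocyte-monocyte markers were high in replicate 3 of both fractions, where Vim, Tpm4 and, in HS3A8-high, Cnn2 and Zyx were also highest. With replicate 3 left out of both fractions the differences of these 4 genes were larger, as given above.

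B cell markers (9 genes, led by Ighm, Cd79b and Vpreb1) summed to 3.13 to 40.7 CPM in HS3A8-high and 43.7 to 114 CPM in HS3A8-low. Basophil and mast cell markers (8 genes, led by Prss34, Cpa3 and Mcpt8) ran from 1.65 to 80.7 CPM and from 21.3 to 165 CPM, macrophage markers (9 genes, led by Cd163, Cd68 and Axl) from 10.5 to 32.7 CPM and from 22.7 to 54.6 CPM, and stroma and endothelium markers (10 genes, led by Pdgfrb, Col1a2 and Cxcl12) from 1.92 to 7.63 CPM and from 10.01 to 35.99 CPM. Of the listed markers, Cd8b1, Ms4a1, Pax5, Tpsb2 and Cdh5 had no count in any library, while others were detected. Cd79b read 7.66 to 10.01 CPM in the HS3A8-low libraries. The basophil and mast cell sums of 80.7 and 165 CPM were both from replicate 3, and those of all other libraries ran from 1.65 to 27.3 CPM. Prss34 read 39.7 and 74.2 CPM in replicate 3 of HS3A8-high and HS3A8-low. It had no count in replicates 1 and 2 of either fraction, and read 8.74 CPM in MPB49 control replicate 1. Immediate-early and heat-shock genes (15 genes, led by Fos, Dusp1 and Dnajb1) summed to 1073 to 1593 CPM in HS3A8-high and 2462 to 2919 CPM in HS3A8-low, with 1636 to 2956 CPM in the control. Of 13 tested, edgeR called 8 lower in HS3A8-high, all immediate-early genes (Fos, Jun, Junb, Egr1, Ier2, Ier3, Dusp1 and Zfp36). The 3 heat-shock genes overlapped between the fractions, at 25.4 ± 13.7 and 31.3 ± 25.3 CPM for Hspa1a, 136 ± 58.5 and 121 ± 69.0 CPM for Hspa1b and 258 ± 68.8 and 279 ± 69.5 CPM for Dnajb1 in HS3A8-high and HS3A8-low (SD, n = 3 each). The part of other cell types and of the immediate-early genes in the differences of Vim, Cnn2, Zyx and Tpm4 was not tested.

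**Figure D4:**
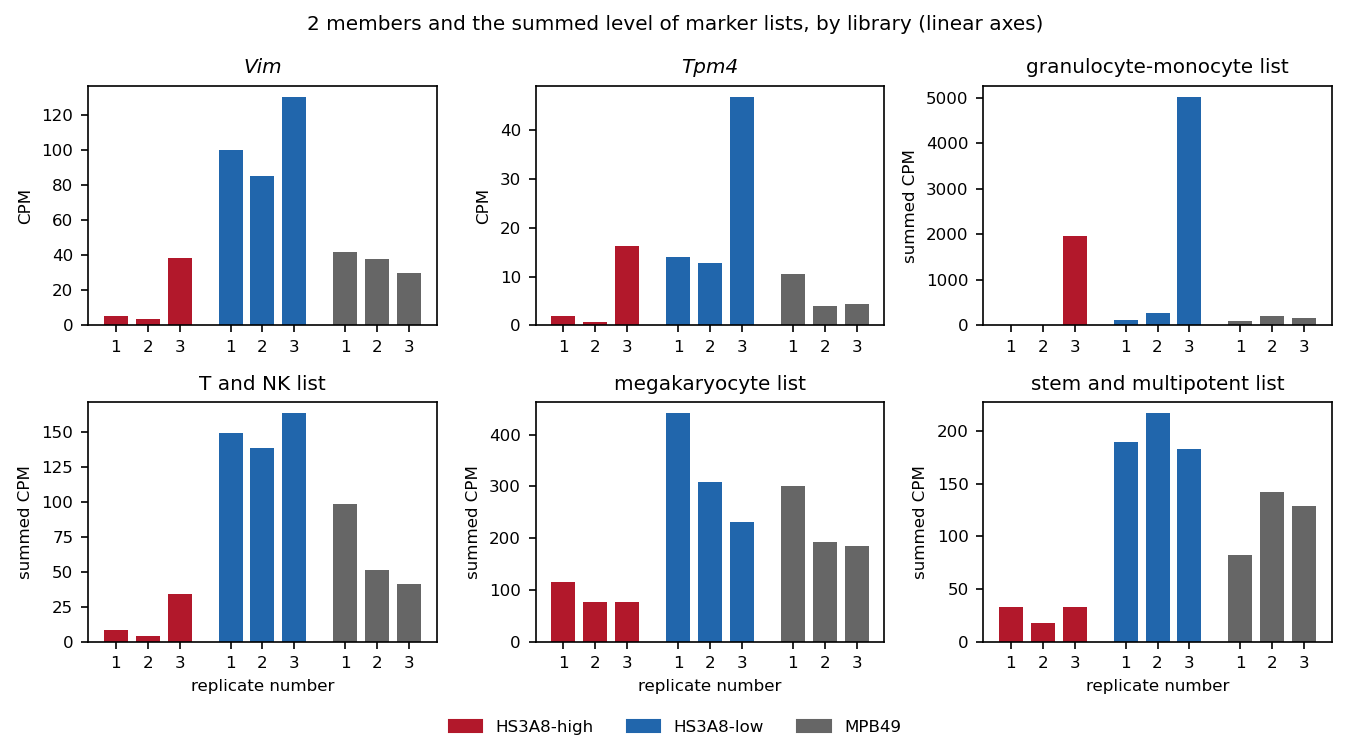
Level of Vim and Tpm4 (CPM) and summed CPM of 4 marker lists in each of the 9 libraries, by replicate number (x axis) and group (colours), on linear axes from 0. Granulocyte-monocyte markers are high in replicate 3 of both fractions, where Vim and Tpm4 are highest within their fraction, and the T and NK, megakaryocyte and stem lists are lowest in HS3A8-high.

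HS3A8-low MEPs were then set against the MPB49 control, which asks how the low fraction differs from the whole gate. Vim, Cnn2, Zyx and Tpm4 had higher values in each HS3A8-low library than in any control library, and the other 6 members overlapped. The HS3A8-low means were 2.87-fold the control mean for Vim, 2.55-fold for Cnn2, 2.29-fold for Zyx and 3.92-fold for Tpm4. The Tpm4 mean leaned on HS3A8-low replicate 3, at 46.6 CPM against 14.1 and 12.8 CPM in replicates 1 and 2. With 1 library left out, the log2 fold change of Tpm4 ran from 1.09 to 2.56. No overlap with HS3A8-low higher was seen for 8.11% of the 11878 genes tested, and with HS3A8-low lower for 4.63%.

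None of these differences passed the test over all genes. By edgeR, 0 of 10 members were called, as were 0% of all genes in either direction, and adjusted p-values were 0.488 for Vim (log2 fold change 1.5, SE 0.23), 0.488 for Cnn2 (1.33, SE 0.20), 0.505 for Zyx (1.18, SE 0.21) and 0.745 for Tpm4 (1.95, SE 0.64). At an unadjusted p under 0.05 these 4 members were higher, where 5.24% of genes were higher and 0.429% lower. DESeq2 called 3 members and voom 3, Vim, Cnn2 and Zyx in each. Their adjusted p were 0.000116, 0.000135 and 0.00249 by DESeq2 and 0.00871, 0.0133 and 0.0117 by voom. DESeq2, without the count filter, called 0.503% of 18107 genes higher, and voom 2.25% of 11878. The call therefore depended on the tool. HS3A8-low libraries of this comparison also entered the choice of the genes.

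Without MPB49 control replicate 1, edgeR's log2 fold changes were 1.63 for Vim, 1.35 for Cnn2, 1.08 for Zyx and 2.56 for Tpm4, and 0 members were called. The log2 fold changes of the long transcripts went from 0.39 to 0.01 for Tln1, from 0.31 to 0.05 for Flna, from 0.34 to 0.05 for Myh9, from -0.19 to -0.52 for Myh10 and from -0.13 to -0.35 for Vcl when it was left out. Actn1, at 1.26 (95% interval -0.27 to 2.79), went to 1.01.

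HS3A8-high MEPs were set against the same 3 control libraries, which the 2 control comparisons share. The HS3A8-high libraries of this comparison entered the choice of the genes too. Of the 9 members tested (Actn1 fell under the count filter), edgeR, DESeq2 and voom each called 0, where edgeR called 0% of the 11486 genes higher and 0.0174% lower. Zyx alone had no overlap, with a log2 fold change of -0.95 (SE 0.32, 95% interval -1.70 to -0.21, adjusted p = 0.733 by edgeR), and it was the only member under an unadjusted p of 0.05. Of all genes, 4.20% were lower and 0.697% higher at that unadjusted p, 6.85% had no overlap with HS3A8-high lower and 7.58% with HS3A8-high higher. The values were -1.21 (95% interval -3.15 to 0.73) for Vim and -0.91 (95% interval -2.11 to 0.30) for Cnn2, and they rested on HS3A8-high replicates 1 and 2, since replicate 3 was above its control number for both genes. Tpm4 had a mean of 6.36 CPM against 6.26 CPM in the control, with a 95% interval of the log2 fold change from -2.40 to 2.45. That HS3A8-high mean rested on replicate 3, at 16.3 CPM against 2.03 and 0.763 CPM in replicates 1 and 2. With 1 library left out, the log2 fold change of Tpm4 ran from -2.16 to 0.62. Vcl, Tln1, Flna and Myh9 had log2 fold changes of 0.19, 0.31, 0.18 and 0.27, which turned to -0.04, -0.06, -0.07 and -0.02 without MPB49 control replicate 1, while Myh10 went from 0.37 to 0.04.

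MPB49 control replicate 1 is a limit for every long gene here. Against the mean of control replicates 2 and 3, its log2 ratio was -1.72 for Tln1, -1.44 for Myh10, -1.19 for Myh9, -1.04 for Flna, -0.89 for Vcl and -0.88 for Actn1, then -0.39 for Zyx, 0.02 for Cnn2, 0.30 for Vim and 1.30 for Tpm4. The 5 genes with more than 8000 bases of exon were the 5 lowest, and the shortest member, Tpm4 with 2203 bases, was the highest. Length trends were not confined to this library. The slope in log2 units per doubling of exon length was -0.33 in control replicate 1. It was 0.17 in HS3A8-high replicate 1, 0.16 in HS3A8-low replicate 1 and -0.13 in HS3A8-low replicate 3. In the rest it ran from -0.0018 to 0.075. The comparison of the fractions is therefore not free of a length trend for the long genes. The cause of these trends was not tested.

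**Figure D5:**
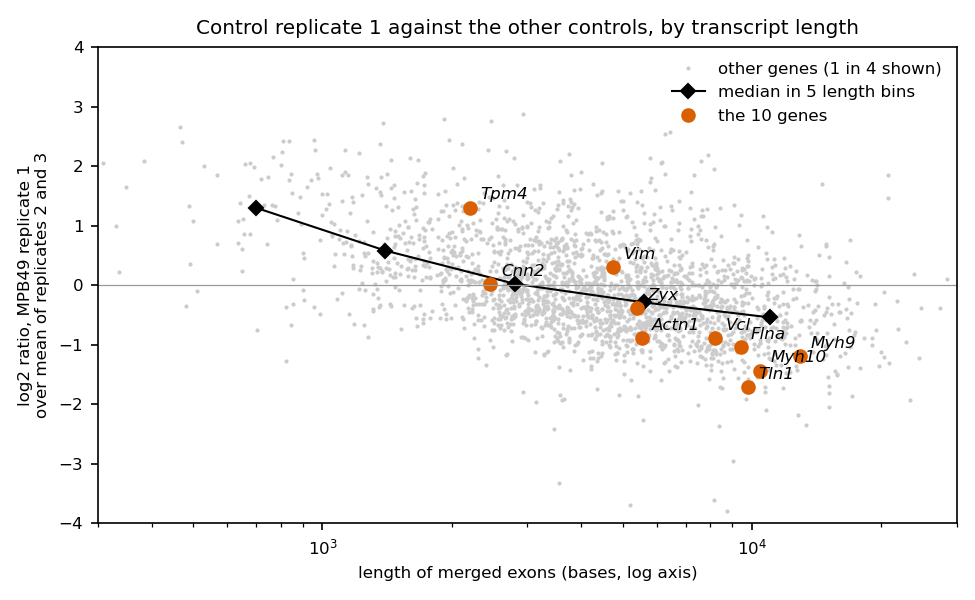
Log2 ratio of MPB49 control replicate 1 to the mean of control replicates 2 and 3 (y axis) against the length of merged exons (x axis, log scale) for 1 in 4 of the measured genes (grey), with the median in 5 length bins (black) and the 10 genes (orange). The median falls from 1.30 to -0.54 with length, and Tln1, Myh10, Myh9, Flna and Vcl lie below the median of the longest bin.

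Across the 9 libraries the 10 genes did not move as 1 set. Pearson's r of log2 CPM was 0.98 for Vim with Cnn2, 0.97 for Cnn2 with Zyx and 0.91 for Vim with Tpm4. A second set held Vcl with Myh10 at 0.98, Tln1 with Myh9 at 0.98, Flna with Myh9 at 0.97 and Tln1 with Flna at 0.94. Between the sets, r ran from -0.67 for Tpm4 with Vcl to 0.26 for Zyx with Flna. For Vim it was -0.55 with Vcl and -0.54 with Myh10, but -0.13, 0.005 and -0.04 with Tln1, Flna and Myh9. Actn1 went with genes of both sets, at 0.80 with Zyx and 0.63 with Flna. These values are descriptions over n = 9 libraries that share 3 groups, replicate numbers and the length trends of control replicate 1 and other libraries. The second set is that of the longest transcripts. Among the 9323 genes that averaged 5 CPM or more, those nearest to the mean standardized profile of the members were Arhgef18 (r = 0.98), Madd (0.98), Wdfy4, Etv6, Sbno2, Tspyl1, Zeb2, Rab5b, Ripor2 and Mfsd13a (0.96), over the same 9 libraries. The members followed that mean unevenly, with r from 0.36 for Tpm4 and 0.38 for Vcl to 0.88 for Actn1. The nearest genes therefore describe the mean and not each member.

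A wider list of 148 further genes of the actin cytoskeleton, its upstream regulators and intermediate filaments places the members among their partners. Of 109 tested between the HS3A8 fractions, 10 were called lower in HS3A8-high and 0 higher by edgeR, beside 3.21% and 0.611% of all genes. The median log2 fold change was -0.18 against -0.03 over all genes, and 75 of the 109 were below 0 against 53.4% of all genes. With the block, 31 were lower and 1 higher, beside 8.27% and 3.32% of genes. The count of 10 became 1, 0 and 18 when replicate 1, 2 or 3 of HS3A8-high was left out, and 0, 0 and 6 when replicate 1, 2 or 3 of HS3A8-low was, and it was 21 with replicate 3 of both fractions left out.

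Among the 10 called genes, the 5 largest changes of those that averaged at least 5 CPM were in Tes, Scin, Krt18, Fmnl1 and Arhgdib. Tes, a LIM protein that binds zyxin, read 1.84, 1.30 and 6.35 CPM in HS3A8-high, 23.9, 20.2 and 25.1 CPM in HS3A8-low and 13.97, 11.4 and 11.6 CPM in the control (log2 fold change -2.89, SE 0.58, adjusted p = 0.0458 by edgeR). Scin, which encodes the filament-severing protein scinderin, read 9.15, 6.64 and 8.66 CPM against 77.2, 48.7 and 24.9 CPM in the low fraction (log2 fold change -2.66, SE 0.41). Neither gene overlapped between the fractions, and HS3A8-high replicate 3 was the highest HS3A8-high library for Tes but not for Scin.

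Krt18, an intermediate filament keratin, had 2.04 ± 0.641 CPM in HS3A8-high and 11.4 ± 2.02 CPM in HS3A8-low (SD, n = 3 each). Fmnl1, a formin of blood cells that lengthens filaments, had a log2 fold change of -1.41 (SE 0.26), and Arhgdib one of -1.14 (SE 0.20). The remaining 5 called were Hcls1 (-0.69), a cortactin-like protein of blood cells, Gsn (-0.96), which encodes the severing protein gelsolin, Marcks (-2.40, at a mean of only 3.59 CPM) and Marcksl1 (-1.04), which bind actin at the membrane, and Rac2 (-0.82), the Rac GTPase of blood cells. They are named to complete the count. Lmnb1, a nuclear lamin, was the 1 gene called higher with the block, at 0.47.

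By role, the called genes were spread over the list, while the log2 fold changes were not even. Crosslinkers had the lowest median, at -1.44, where the other roles ran from -0.45 to 0.03. With the members included, edgeR called lower in HS3A8-high 2 of 21 adhesion genes tested (Tes and Zyx), 2 of 16 crosslinkers, 2 of 10 capping and severing genes, 2 of 20 nucleation genes, 1 of 8 intermediate filament genes and 2 of 10 upstream regulators (Rac2 and Arhgdib). In the same order, these roles held 8, 8, 2, 6, 3 and 5 genes under an unadjusted p of 0.05 by edgeR, in either direction. Of 10 myosin II genes, 10 monomer-binding genes, 8 tropomyosin and calponin genes, 4 membrane linkers and 2 actins, 0 were called by edgeR, while 1, 3, 2, 1 and 0 were under an unadjusted p of 0.05, as were 2339 of the 11791 genes. The actins themselves were level, at 3504 ± 141 and 3322 ± 66.4 CPM for Actb and 689 ± 49.2 and 729 ± 48.2 CPM for Actg1 in HS3A8-high and HS3A8-low (SD, n = 3 each), with 95% intervals of the log2 fold change from -0.07 to 0.15 and from -0.32 to 0.08.

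Against the control the wider list gave 0 calls by edgeR in both comparisons. In HS3A8-low over the control, 20 of 109 tested were under an unadjusted p of 0.05 in either direction, as were 673 of the 11878 genes, and the median log2 fold change was 0.17 against -0.00 over all genes. DESeq2 called 3 of 137 and voom 12 of 109 higher, beside the shares of all genes given above. In HS3A8-high over the control, 6 of 106 were under that p, as were 562 of the 11486 genes, and the median was -0.00 against -0.00 over all genes. DESeq2 called 1 of 137 lower and voom 0 of 106, beside 0.808% of 17702 genes without the count filter and 0.853% of 11486 genes.

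Tubulins, the subunits of the other filament system of the cytoskeleton, are given for comparison. Of 11 tested between the fractions, 4 were called higher in HS3A8-high (Tuba1b, Tuba1c, Tubb4b and Tubb5, with log2 fold changes from 0.39 to 0.50) and 2 lower (Tuba1a at -1.78 and Tuba8 at -3.49) by edgeR, beside 0.611% and 3.21% of all genes. Tuba1b, an alpha-tubulin, read 2250.0, 2259.9 and 2263 CPM in HS3A8-high and 1555, 1732 and 1560.1 CPM in HS3A8-low. The 4 tubulins were named because they complete the count.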

How the data were processed

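Bulk RNA-seq of 9 MEP libraries was analysed. The authors mapped the reads to mm10, and the counts they deposited are unnormalized whole numbers for each gene and library. The submitters' processing notes name STAR 2.5 and HTSeq 0.6.1. The annotation release and strand setting are not given in the sources used here. Identifiers were joined to GENCODE M21 on GRCm38, and 34490 of 35275 matched. Coordinates and merged exon lengths are from that annotation, promoter windows from RefSeq.

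In R 4.3.3, edgeR 4.0.16 was fitted to the 2 groups compared (TMM, filterByExpr, quasi-likelihood test, two-sided, Benjamini-Hochberg over all genes tested, threshold 0.05), after a check on simulated data. CPM were TMM-scaled over the 9 libraries, log2 CPM used a prior count of 2, and TPM divided counts by exon length. Values with a replicate block are given beside the comparison of the fractions, since same-numbered fractions deviated together (every r above 0.1); the pairing comes from the numbers in the labels and this check. Alternatives were the Wald test of DESeq2 1.42.0, its size factors in edgeR, voom of limma 3.58.1 with quality weights, another filter (mean count 10 or more) or none, a single fit of the 9 libraries, the block, and leaving out each library in turn.

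The 10 genes and all lists were chosen with earlier results of these data known. Named besides them were their paralogs (1 is not reported here), up to 5 called genes per direction of the wider list with at least 5 CPM, the 10 nearest profiles and the top 3 and undetected genes of each marker list. Other genes are named where they complete a count of calls or show what a summed list holds.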

Additional observations from a re-analysis of the deposited data

How the results depend on the processing

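Between the HS3A8 fractions, edgeR called 451 genes, 1 of the 10 members and 10 genes of the wider list. Those counts were 1367, 5 and 32 with the replicate block, 1224, 2 and 24 with DESeq2, and 1490, 3 and 29 with voom. Without a count filter, and with all 9 libraries in 1 fit, 2 members were called. Leaving out 1 library gave 0 to 439 genes, 0 to 3 members and 0 to 18 genes of the wider list. With replicate 3 of both fractions left out, a choice made after seeing the data, the counts were 748, 4 and 21. In HS3A8-low over the control, where edgeR called 0 genes, DESeq2 called 93 genes, 3 members and 3 of the wider list, and voom 287, 3 and 12. In HS3A8-high over the control, where edgeR called 2 genes, the count was 0 with the block, 143 with DESeq2, 100 with voom, 9 without a filter, 32 in the fit of all 9 libraries and 0 to 5 with 1 library left out, and DESeq2 called 1 of the wider list. The causes were not tested.

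Log2 fold changes that changed sign were all uncalled. With 1 library left out, those of the fractions ran from -0.42 to 0.18 for Flna, -0.29 to 0.23 for Myh9 and -0.32 to 0.25 for Tln1. In HS3A8-low over the control, voom gave -0.055 for Tln1, -0.075 for Flna and -0.012 for Myh9, replicate 1 left out of both groups (chosen after seeing the data) gave -0.31, -0.26 and -0.25, and 1 library left out gave -0.0076 to 0.49 for Flna, -0.35 to 0.056 for Vcl and -0.52 to 0.029 for Myh10. In HS3A8-high over the control, voom gave -0.027 for Vcl, -0.10 for Tln1, -0.19 for Flna, -0.044 for Myh9, -0.0016 for Myh10 and -0.52 for Tpm4, the replicate block -1.04 for Tpm4, and replicate 1 left out of both groups -0.13 for Vcl, -0.27 for Tln1, -0.34 for Flna, -0.19 for Myh9 and -0.17 for Myh10. There, 1 library left out gave -0.073 to 0.37 for Flna, -2.16 to 0.62 for Tpm4, -0.041 to 0.38 for Vcl, -0.059 to 0.57 for Tln1 and -0.018 to 0.50 for Myh9. Neither control comparison was paired by the replicate numbers (r of same-numbered libraries from -0.36 to 0.02 and from -0.25 to -0.07), and the block changed no member's call in them. DESeq2 size factors moved no level of a member by more than the SD of its group.

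Vim, Cnn2, Zyx and Actn1 kept their sign in every alternative of each comparison in which edgeR tested them. Actn1 passed the count filter only in the comparisons that include HS3A8-low, the group with its highest mean. Its log2 ratio between the fractions in replicate 3 was 0.36, so nothing is read from its kept sign. Depth limits Actn1, with 4 to 41 counts per library, and 3 libraries per group limit all tests.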
